A study of Mus musculus with 6 samples.

Results

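Genes of the CD nomenclature, which numbers leukocyte and other cell-surface antigens by the antibodies that bind them, were examined in bone marrow stroma with and without Snai2. The members were all genes in the authors' deposited table whose symbol is Cd followed by a number and, in some cases, a letter or a further number, with Cd44 left out. The rule took 7 of the 1285 genes in the table: Cd48, Cd244, Cd28, Cd177, Cd9, Cd59a and Cd320. The RefSeq annotation of the same mouse assembly holds 101 symbols of that form without Cd44. At least 4 of these, Cd2ap, Cd2bp2, Cd3eap and Cd55os, name other products. Of the 101 symbols 94 were not in the table, and the 7 listed were 6.93%. Every gene in the table has an unadjusted p below 0.05 (the largest was 0.0499). A CD-numbered gene outside it either had a larger p or was not tested. The recovered number of genes tested was 16718, of which 7.69% were listed. The 2 shares have different bases, since how many of the 101 symbols were tested is unknown.

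RNA came from bone marrow mesenchymal stem and progenitor cells, perivascular stromal cells that support blood stem cells, of mice aged 8 weeks. In both groups about 2000 cells per library had been sorted as negative for CD45 (leukocytes), Ter119 (erythroid cells) and CD31 (endothelium) and positive for Nes-GFP, a transgene in which regulatory sequences of nestin drive green fluorescent protein. There were 3 libraries from control animals and 3 from Snai2-/- littermates, which lack the zinc-finger repressor Slug. The genotype labels name no other allele and do not say which control genotypes were used or whether libraries came from separate animals, so the p-values may measure spread that is partly technical. The comparison asks what the loss of Snai2 does to the transcripts of these cells.

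The table gives 1 least-squares mean per group, normalized to an unstated unit. Single-library values were not analysed here, so no SD stands beside a mean, depth is unknown, and the authors' p and step-up false discovery rate (FDR) are the only measures of error. The scale is not stated to be per length, so expression is compared between groups within a gene. Across genes, total signal and the size of the means serve only to describe how much signal a ratio rests on. In the authors' deposited table Snai2 itself stood at 9.20 without the gene and at 636 with it. Of the genes tied to the sort, Ptprc (CD45), Pecam1 (CD31) and Nes were not listed, so the purity of the sorted cells was not checked with them. Of 11 markers of stromal progenitors only Angpt1 was listed, and the authors' deposited table puts it at 126 in Snai2-/- and 171 in control.

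CD numbers group proteins by how they are detected and not by what they do, and the 7 members come from several families. CD48 and CD244 form a ligand and receptor pair of the SLAM family, immunoglobulin-like proteins through which blood cells recognise each other, and CD28 is the costimulatory receptor of T cells. CD177 is a surface antigen of neutrophils. CD9 is a tetraspanin, CD59 stops the membrane attack complex of complement, and CD320 takes up cobalamin (vitamin B12). CD48, CD59 and CD177 are held in the membrane by a glycosylphosphatidylinositol anchor and the other 4 members by transmembrane segments.

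Of the 7 members, 6 had a higher and 1, Cd320, a lower mean in Snai2-/- cells. Over all genes tested, 3.77% were listed as higher and 3.91% as lower, and 49.1% of the 1285 listed genes were higher. No member reached an FDR of 0.05, and neither did any other gene (0% of 16718). The members' FDR ran from 0.356 to 0.649 in the authors' deposited table. Its p-values put all 7 below 0.05, as the table's own limit fixes, and 2 of them, Cd28 and Cd9, below 0.01. Ranked by p, Cd9 stood at 338 among the 1285 listed genes, so at least 338 of them were below 0.01. Those 2 members are thus no result about the group. The median log2 ratio of the 7 was 1.58, against -0.36 over all listed genes. It was 0.76 without Cd28, Cd244 and Cd48, the members with the least signal, and 0.86 and 0.33 with pseudocounts of 1 and 10 on both means. A log2 ratio of at least 1 in either direction was found for 4 members, all of them higher, and for 45.9% of listed genes. These counts describe the members and carry no test.

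**Figure D1:**
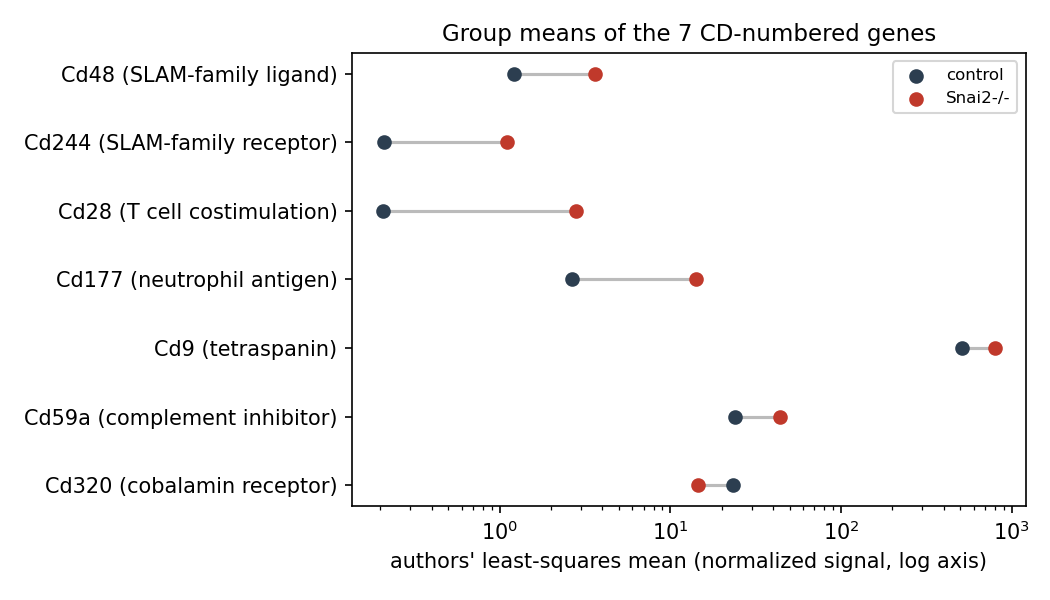
Group means of the 7 CD-numbered genes on a log axis, in the authors' normalized units, with control in dark blue and Snai2-/- in red and a grey line joining the 2 means of a gene. The red point lies to the right for 6 genes and to the left for Cd320. No error bars are drawn because the table gives means only.

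Both genes of the SLAM-family ligand and receptor pair were listed, each by its own p. The authors' deposited table puts Cd48 at a mean of 3.64 without Snai2 and 1.21 in control, 3.0 times as high (p = 0.0392, FDR 0.616). Cd244, also called 2B4 and known to the reference annotation as Cd244a, stood at 1.10 against 0.211 by the authors' deposited table, 5.24 times as high (p = 0.0370, FDR 0.612). Both were thus higher in Snai2-/- cells, and both ratios rest on weak signal. Only 14.2% of listed genes had a lower total signal than Cd48, and 4.98% a lower total than Cd244. Listed genes with as little signal had large ratios too. The 100 listed genes nearest to Cd48 in total had a median absolute log2 ratio of 1.68, and Cd48 stood at 1.58. The 100 nearest to Cd244 had a median of 2.66, and Cd244 stood at 2.39. With a pseudocount of 1 on both means the log2 ratio was 1.07 for Cd48 and 0.80 for Cd244.

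Both genes lie in a cluster of SLAM-family genes on chromosome 1 (GRCm38, 171559193 to 171953170, a span of 394 kb). Cd48 occupies 171682009 to 171705258 on the plus strand, and Cd244 lies at 171559193 to 171609746 on the same strand, ending 72.3 kb before Cd48 starts. Slamf1, which encodes CD150, starts 61.9 kb beyond the end of Cd48. Of the 7 SLAM genes of the cluster 3 were listed, but 2 of these are members, which the rule took from the listed genes. Of 14 CD48 partners and SLAM-family genes, with Slamf8 and Slamf9 outside the cluster among them, the same 3 were listed (21.4%). Over all genes tested 7.69% were listed, a share with another base, so no excess in the cluster can be read from these counts. Ly9, Slamf7, Cd84 and Slamf6 were not listed. Slamf1 went the other way, as the authors' deposited table has it at 6.95 in control and at 0.0001 in Snai2-/- (p = 0.00321, FDR 0.356). The value 0.0001 fills 1 group's mean in 7 genes of the table, and how it arose is not stated, so no ratio is given for Slamf1. CD150, CD48 and CD244 are the SLAM proteins by which mouse blood stem cells and their progeny are commonly told apart. Neither Cd2, an adhesion partner of CD48, nor the SLAM adaptor genes Sh2d1a and Sh2d1b1 and the kinase genes Fyn and Lck were listed. The span of the Cd244 gene model overlaps Ly9 on the opposite strand, and the library chemistry does not mark the strand. The span of Cd48 overlaps Gm37010, an unlisted gene model on the same strand. Reads of bases that exons of either overlapping pair share, if any, therefore cannot be told apart.

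**Figure D2:**
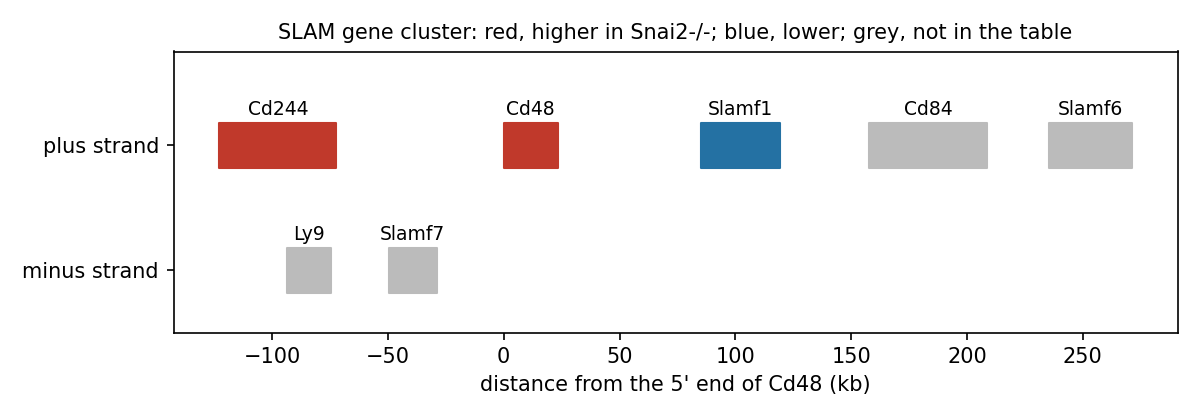
Map of the SLAM gene cluster to scale, with the distance from the 5′ end of Cd48 in kb on the horizontal axis and plus-strand genes above minus-strand genes. Cd244 and Cd48 are red (higher in Snai2-/-), Slamf1 is blue (lower) and the 4 grey genes were not in the table.

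Slug binds E-boxes, and CAGGTG is the E-box core that Snail-family proteins prefer. RefSeq promoter windows on GRCm38.p6, from 250 bases before to 50 bases after a transcription start, were found for 6 of the 7 members (7 windows, of which Cd320 has 2), all but Cd28. They were searched on both strands for CAGGTG, and for any E-box, CANNTG, of which CAGGTG is one form. The core CAGGTG was present in 20.2% of all 32851 windows and any CANNTG in 72.3%. Among the members, the core was present for 1, Cd9, and some CANNTG for 5 (Cd48, Cd244, Cd9, Cd59a and Cd320), while the Cd177 window held none. The windows of the SLAM pair are shown because the 2 genes share a cluster and both had higher means, and that of Cd9 because it holds the core, with every CANNTG in capitals, 5′ to 3′ on the gene's strand.
Cd48, chr1:171681742-171682041, plus strand: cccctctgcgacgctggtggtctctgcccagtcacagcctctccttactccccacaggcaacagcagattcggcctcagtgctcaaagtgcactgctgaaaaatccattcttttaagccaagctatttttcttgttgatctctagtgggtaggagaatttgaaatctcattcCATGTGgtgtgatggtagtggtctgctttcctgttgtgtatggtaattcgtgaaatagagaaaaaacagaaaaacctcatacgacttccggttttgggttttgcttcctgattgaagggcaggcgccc
Cd244, chr1:171558943-171559242, plus strand: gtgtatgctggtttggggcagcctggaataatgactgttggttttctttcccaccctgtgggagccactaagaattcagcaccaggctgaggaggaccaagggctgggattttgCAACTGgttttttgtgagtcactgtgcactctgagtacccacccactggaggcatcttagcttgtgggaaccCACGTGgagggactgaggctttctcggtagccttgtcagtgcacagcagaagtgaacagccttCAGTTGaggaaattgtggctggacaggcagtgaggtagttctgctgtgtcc
Cd9, chr6:125494711-125495010, minus strand: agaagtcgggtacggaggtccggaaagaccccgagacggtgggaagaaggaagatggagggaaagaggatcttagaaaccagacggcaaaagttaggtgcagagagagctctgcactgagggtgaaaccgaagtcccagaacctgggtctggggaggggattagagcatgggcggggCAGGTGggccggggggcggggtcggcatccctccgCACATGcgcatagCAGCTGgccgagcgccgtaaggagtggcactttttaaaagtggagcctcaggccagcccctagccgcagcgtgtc
Cd48 holds 1 E-box, CATGTG, which begins 78 bases before the start. Cd244 holds 3, of which the one that begins 64 bases before the start is the palindrome CACGTG. Cd9 holds CAGGTG 73 bases before the start, followed by CACATG and CAGCTG. Binding was not measured, and a match is a description of the letters only.

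The remaining blood-cell members were Cd28 and Cd177, both with higher means in Snai2-/- cells. Cd28 (chromosome 1, 60716800 to 60773359, plus strand) stood at 2.79 against 0.206 in control, as given by the authors' deposited table. The ratio of 13.5 (p = 0.00324, FDR 0.356), taken from the authors' deposited table, was the largest of the 7, and its p the smallest. The log2 ratio of 3.76 lay above the median absolute value of 1.96 among the 100 listed genes nearest in total signal, but it was 1.65 with a pseudocount of 1. Of the T and NK lymphocyte markers fixed for comparison (10 genes, among them Cd3e, Cd4, Cd8a, Trac and Lck) none was listed, and of 9 B lymphocyte markers none. Over all genes tested 7.69% were listed, so with lists of 10 and 9 genes a count of 0 lies near that share. It says nothing about Cd28, which the rule took because it was listed. The lymphocyte markers were absent either for a larger p or because they were not tested.

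Cd177 (chromosome 7, 24743983 to 24760311, minus strand) was 5.38 times as high in Snai2-/- by the authors' deposited table, at 14.2 against 2.65. Its p of 0.0486 in the authors' deposited table was the largest of the 7, with an FDR of 0.649. The log2 ratio of 2.43 was above the median absolute 1.07 of the 100 listed genes nearest in total, and it was 2.06 with a pseudocount of 1. Cd177 therefore kept more of its ratio than Cd28, Cd244 and Cd48 did. Several neutrophil granule and surface genes were listed in the same direction, none at an FDR of 0.05. Over all genes tested 7.69% were listed, and 49.1% of the listed genes were higher. Of 11 neutrophil markers 7 were listed (Ltf, Ngp, Lcn2, Chil3, Ly6g, Camp and S100a9), all with a higher mean in Snai2-/- cells and with log2 ratios from 1.56 to 3.38. The means of these 7 summed to 820 in Snai2-/- and 186 in control cells, a sum that is not per length and to which Ngp and S100a9 gave the most, and S100a8, Mpo, Elane and Cxcr2 were not listed. Ly6g, which like CD177 is a surface antigen of neutrophils, is put at 0.931 against 0.105 by the authors' deposited table. Of 12 general leukocyte markers only Cd48 itself was listed, and Ptprc, which encodes the CD45 that the sort selected against, was not. Of 11 macrophage and monocyte markers only Adgre1 was listed, at 0.695 against 0.0560 by the authors' deposited table. For Ly6g and Adgre1 both group means were below 1, so their ratios rest on weak signal, as that of Cd244 does. Of 9 erythroid markers only Car1 was listed, at 137 against 45.7 by the authors' deposited table. The part of other cells in the means of Cd48, Cd244, Cd28 and Cd177 was not tested. In bulk RNA more cells of a type and more RNA per cell cannot be told apart.

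**Figure D3:**
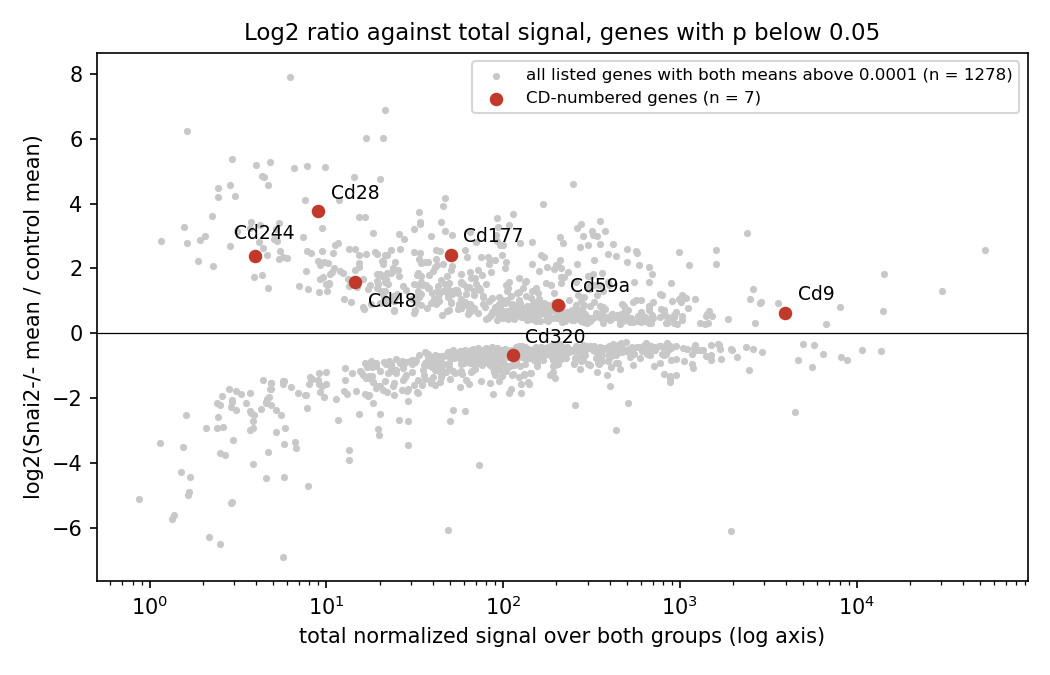
Log2 ratio of Snai2-/- over control against the total normalized signal of both groups (log axis) for the 1278 listed genes with both means above 0.0001, with the 7 CD-numbered genes in red. Cd244, Cd28 and Cd48 lie at the left, where listed ratios are wide, and Cd9 and Cd59a at the right with log2 ratios of 0.64 and 0.88. The empty band around 0 follows from listing only genes with p below 0.05.

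The members with more signal, Cd9, Cd59a and Cd320, differed by less than 2-fold. Cd9 (chromosome 6, 125460266 to 125494791, minus strand), a tetraspanin that organises integrins and other proteins in the membrane, was put by the authors' deposited table at 801 without Snai2 and 515 in control. This made a ratio of 1.56 (p = 0.00911, FDR 0.450), again by the authors' deposited table. More signal stood behind Cd9 than behind 98.7% of listed genes, and its log2 ratio of 0.64 was close to the median absolute 0.65 of the 100 genes nearest in total. A pseudocount of 10 left it at 0.63. The antisense transcript Gm28809 lies within Cd9 on the opposite strand (chromosome 6, 125481363 to 125484678) and was also listed. It went the other way, at 1.54 against 4.02 by the authors' deposited table, a ratio of 0.382 (p = 0.0255, FDR 0.572). Gm26728 also overlaps Cd9 on the opposite strand and was not listed. As the strand is not marked, reads of bases that exons of Cd9 share with Gm28809 or Gm26728, if any, cannot be told apart. Gm28809 was named after its values were seen.

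Cd59a (chromosome 2, 104095801 to 104115354, plus strand) was 1.84 times as high in Snai2-/- by the authors' deposited table, at 44.1 against 23.9 (p = 0.0101, FDR 0.458). The log2 ratio of 0.88 stood beside a median absolute 0.63 in the 100 listed genes nearest in total, and it was 0.86 with a pseudocount of 1. Cd59b, a duplicate of Cd59a that ends 4.61 kb before it, was not listed. The longest coding transcripts of the pair were 83.2% identical over an alignment of 739 bases. Reads shared by the pair were not counted here.

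Cd320 (chromosome 17, 33843091 to 33849774, plus strand) was the 1 member with a lower mean in Snai2-/- cells. By the authors' deposited table it stood at 14.5 against 23.3 in control, a ratio of 0.622 (p = 0.0239, FDR 0.561). Its log2 ratio of -0.68 had a size near the median absolute 0.73 of the 100 listed genes nearest in total. With a pseudocount of 10 the log2 ratio was -0.44.

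**Figure D4:**
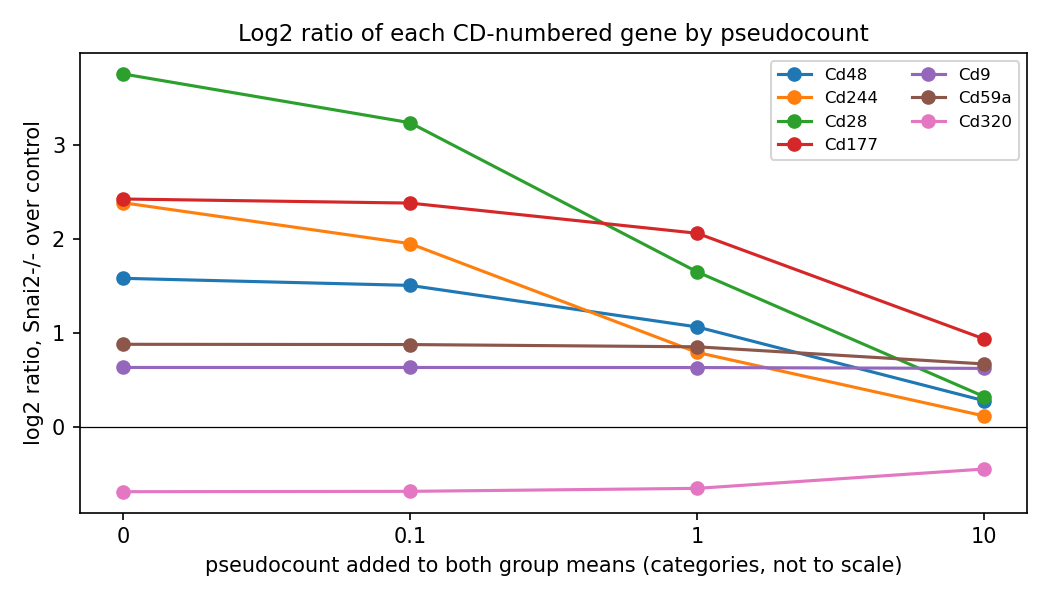
Log2 ratio of Snai2-/- over control for each of the 7 genes with 0, 0.1, 1 or 10 added to both group means (the steps are categories, not a scale). Cd9 moves from 0.64 to 0.63 between 0 and 10, and Cd28 from 3.76 to 0.33. No line crosses 0, because the same number added to both means cannot change a sign.

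In Cd48, Cd244 and Cd28 both means were below 5. Of the other 4, Cd177, Cd9, Cd59a and Cd320, 3 were higher and 1 was lower. All 3 anchored members (Cd48, Cd59a and Cd177) were higher, as were 3 of the 4 with transmembrane segments. With only 1 lower member, these counts cannot show whether the form of attachment separates directions. Cd44, left out by the rule, stood at 55.9 against 34.8 by the authors' deposited table, a ratio of 1.61 (FDR 0.506), and with it 7 of 8 CD-numbered genes of the table were higher.

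CD antigens whose genes carry other symbols went both ways. Of 104 such surface genes on 3 lists, most with a CD number, 10 were listed (9.62% of the lists, tested or not, while 7.69% of genes tested were listed), 4 higher and 6 lower, and 0 of them had an FDR below 0.05. Of 49 stromal antigens 4 were listed, 2 higher and 2 lower. Slc3a2, the heavy chain of the amino acid transporter CD98, stood at 194 against 123 in control, and Tnfsf11, the gene of RANKL, at 201 against 101, by the authors' deposited table. The integrin gene Itga6 (CD49f) stood at 1.17 against 7.44, and the lysosomal membrane gene Lamp2 at 739 against 924, by the authors' deposited table.

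Of 42 blood-cell antigens 5 were listed (11.9%, against 7.69% of genes tested), and 4 of these were lower in Snai2-/- cells. The 4 blood-cell members with CD symbols were higher, 3 of them with both means below 5. Over all listed genes 49.1% were higher. These counts are too small to show a difference between the 2 sets, and none was tested. Besides Slamf1 the lower antigens were the interleukin-3 receptor gene Il3ra and the Toll-like receptor genes Tlr2 and Tlr4. Their ratios were 0.671, 0.654 and 0.676 by the authors' deposited table. The semaphorin gene Sema4d (CD100) was higher, at 28.3 against 6.12 and an FDR of 0.199 by the authors' deposited table. Several of these receptors are also made by stromal cells. Of 14 endothelial antigens only Procr, the protein C receptor gene, was listed, at a ratio of 1.49 by the authors' deposited table. Of 10 endothelial markers, some of them on that list too, Flt4 and Vwf were listed, at ratios of 2.09 and 0.0598 by the authors' deposited table. Vwf was also the only listed gene of 7 megakaryocyte markers.

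**Figure D5:**
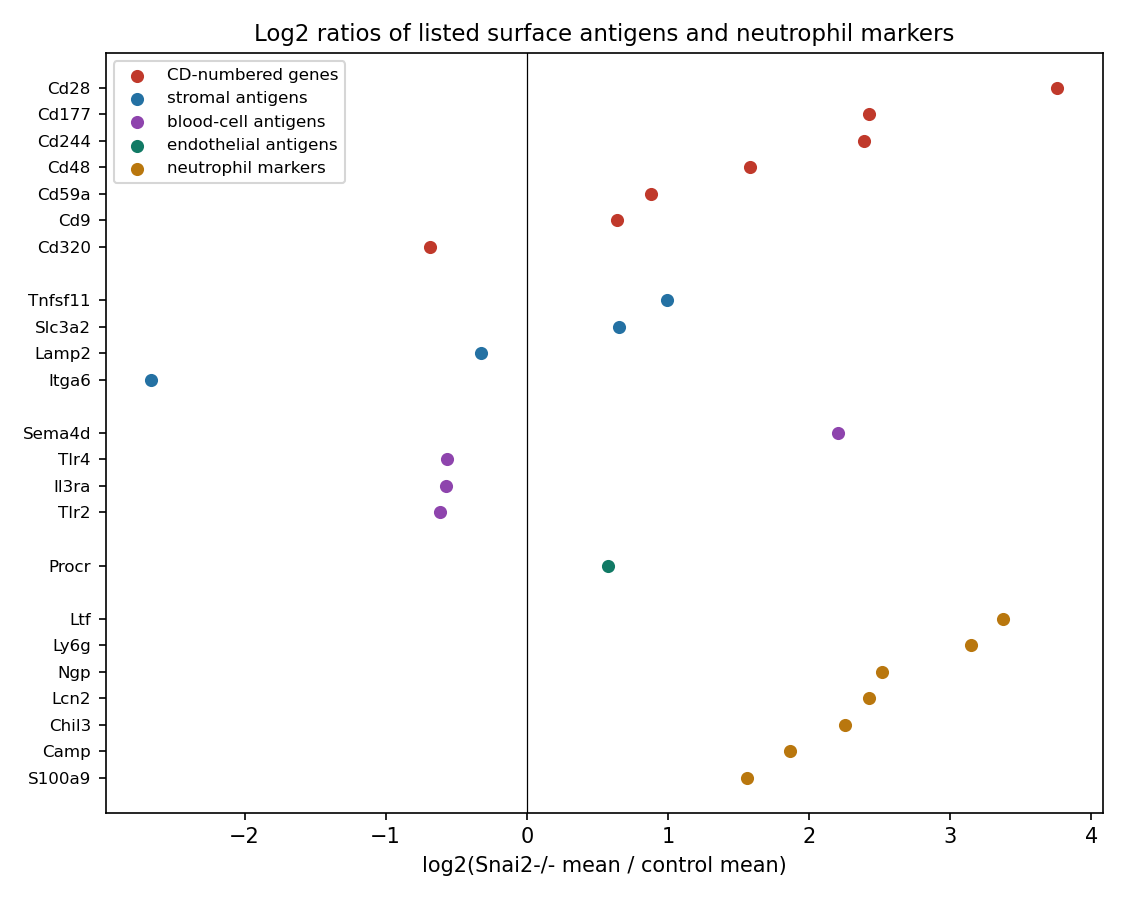
Log2 ratio of Snai2-/- over control for each listed CD-numbered gene (red), antigen under another symbol (stromal in blue, blood-cell in purple, endothelial in green) and neutrophil marker (brown). The neutrophil markers and 6 of 7 CD-numbered genes lie right of 0, while the other antigens lie on both sides. Slamf1, at 0.0001 in Snai2-/- cells, has no ratio and is not drawn.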

How the data were processed

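RNA-seq of sorted bone marrow stromal cells was compared between 3 control and 3 Snai2-/- libraries, grouped by their titles. Per the labels' protocols, cDNA was amplified by SMART-Seq v4 and Nextera XT libraries were prepared from it, a chemistry that does not mark the strand. Per the submitters' processing notes, Trim Galore, HTSeq, edgeR 3.12.0 and the mm10 build were used, without their roles being given, and no source used here states the model behind the p-values. The authors deposited 1 table of Mutant against Wildtype, read here as Snai2-/- against control. Per the file headers, it gives the authors' p-value and step-up FDR, a ratio of group means, a signed fold change (a score, minus the reciprocal of ratios below 1) and least-squares means. The deposited means and totals are a normalized signal: 0 of 1285 totals are whole numbers, and all equal 3 times the sum of both means within a relative 1e-05.

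No model was fitted. To find how many genes were tested, each FDR was multiplied by its rank over p and the maximum was taken, a step tested on simulated data. In the deposited table, a step-up adjustment over that number returned the listed FDR within 0.0225%. Log2 ratios were computed from the deposited means, and lists are described by counts. Of the genes on the lists, 1 is not reported here and is left out of their counts. The members and lists were chosen with earlier results of these data known. The named genes are Snai2, every member, up to 12 listed genes of each antigen or SLAM list by p, and up to 4 of each marker list by total. All 7 listed neutrophil markers are named because, like Cd177, they had higher means in Snai2-/- cells, a choice made with their values known. Positions are 1-based from GENCODE M21 on GRCm38, which mm10 denotes. Cd244 was matched to Cd244a by its RefSeq synonym, and 7 of 7 members were found. Transcripts of Cd59a and Cd59b were aligned with blastn. Alternatives covered FDR limits, fold, signal and p limits, pseudocounts, membership and centring. Python 3.11.15, numpy 2.4.6, pandas 2.3.3 and matplotlib 3.10.9 were used.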

Additional observations from a re-analysis of the deposited data

How the results depend on the processing

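The count of members at FDR 0.05 was 0 and was also 0 at FDR 0.1 and at FDR 0.25. Few genes of any kind passed these limits. The lowest FDR among the 16718 genes tested was 0.0758, that of Snai2. Fewer than 133 genes were below 0.25, since Tspan11, at rank 133 by p, stood at 0.356. The counts of 0 are thus no result about the members. Adding a log2 ratio of at least 1 could only leave it at 0. No log2 ratio changed sign under the centring run, and the pseudocounts cannot change a sign. The count of higher members, 6, was 3 with a higher mean of at least 10 and 2 with p below 0.01. The lower count, 1, was 0 with an absolute log2 ratio of at least 1 or p below 0.01. At least 338 of the 1285 listed genes had p below 0.01. Leaving out Cd28, Cd244 and Cd48, an alternative chosen after seeing the data, gave 3 higher members. The median log2 ratio of 1.58 was 0.76 without those 3 or with a higher mean of at least 10, 1.23 with Cd44, and 1.51, 0.86 and 0.33 with pseudocounts of 0.1, 1 and 10. With those 3 pseudocounts the log2 ratio was 3.24, 1.65 and 0.33 for Cd28, 1.95, 0.80 and 0.12 for Cd244, 1.51, 1.07 and 0.28 for Cd48, and 2.38, 2.06 and 0.94 for Cd177. With 1 and 10 it was 0.86 and 0.67 for Cd59a and -0.65 and -0.44 for Cd320, and with 10 it was 0.63 for Cd9. Centring on the median of all listed genes, -0.36, gave 4.11 for Cd28, 2.74 for Cd244, 1.94 for Cd48, 2.78 for Cd177, 0.99 for Cd9, 1.24 for Cd59a and -0.33 for Cd320. That median is over genes selected by p and is no measure of library scaling. The pseudocounts, fewer members and centring act by their construction. No paired analysis was possible because no library values were analysed here, and for the same reason left-out replicates, other normalizations and count models were not run. Whether 1 library sets a mean is unknown for each member.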

Other observations

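Gene groups that share a role with the members were looked up after the members were known, from lists written by role, and the counts are descriptions. Over all genes tested 7.69% were listed, and 49.1% of the listed genes were higher. Of the lists, members included, 7.41% (tetraspanins), 11.1% (complement), 18.2% (CD28 family) and 7.14% (cobalamin) were listed. Of 27 tetraspanins and tetraspanin partners 2 were listed, both higher in Snai2-/- cells. Besides Cd9 this was Tspan11, at 26.9 against 3.29 in control by the authors' deposited table, a ratio of 8.18 (p = 0.00293, FDR 0.356), while Cd63, Cd81, Cd82 and Cd151 were not listed. Of 18 complement regulators and terminal components 2 were listed, in opposite directions. Cd59a was higher, and Clu, which encodes clusterin, another inhibitor of the membrane attack complex, stood at 1855 against 2725 by the authors' deposited table, a ratio of 0.681 (p = 0.0121, FDR 0.473).

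Of 11 genes of the CD28 family and its ligands 2 were listed, Cd28 and Icosl. Icosl, the ligand of the CD28 relative ICOS, stood at 25.1 against 14.8 by the authors' deposited table, 1.70 times as high (FDR 0.529). Cd80 and Cd86, the ligands of CD28, were not listed. Of 14 genes of cobalamin uptake and use only Cd320 was listed, and neither the carrier gene Tcn2, whose protein CD320 binds, nor the cobalamin-dependent enzyme genes Mtr and Mmut were.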
